A study of Mus musculus with 9 samples.

Results

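The enzymes and transporters that handle bicarbonate were followed across the choroid (CH), the retinal pigment epithelium (RPE) and the photoreceptors (PR) of the mouse eye. The set holds 8 carbonic anhydrases (Car2, Car3, Car4, Car5b, Car9, Car12, Car13 and Car14) and 2 sodium bicarbonate cotransporters (Slc4a4 and Slc4a5). Its members were chosen by name, as every probe that is not a control and carries one of these 10 symbols in the scanner output, which gave 14 probes of 39429 on the array and 10 genes of 31829 gene names. Slc4a4 had 3 probes, Car4 and Slc4a5 had 2 each, and the other 7 genes had 1.

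Each tissue was laser dissected from whole eyes of female C57BL/6 mice (of the J strain, by the methods), 1 eye for every sample, and each was measured in 3 samples, 9 arrays in all. The labels give the mice an age of 6 months with a range of 2 weeks, and the methods a slightly younger one. The tissue's amplified RNA was labelled with Cy5 and competed on each array with a Cy3-labelled common reference made from RPE and choroid. No gene had been altered and no treatment given, and the 3 replicates of a tissue are separate eyes.

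Carbonic anhydrases turn carbon dioxide and water into bicarbonate and a proton, and back. Photoreceptors release much carbon dioxide, and the RPE, the cell sheet between them and the choroidal vessels, carries bicarbonate and fluid from the retinal side to the blood side. Cytosolic forms (Car2, Car3, Car13), a mitochondrial form (Car5b) and forms whose active site faces the outside of the cell (Car4, Car9, Car12, Car14) serve different compartments, while Slc4a4 and Slc4a5 move bicarbonate together with sodium across the plasma membrane.

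The promoters of the genes with the largest RPE over CH differences, Car12, Car14 and Slc4a5, are shown first, as the 250 bases before the RefSeq start (GRCm38.p6). They cover chr9:66713436-66713685 on the plus strand, chr3:95904686-95904935 on the minus strand and chr6:83237125-83237374 on the plus strand. Capitals mark TAATCC, the core that OTX and CRX homeodomain factors of the eye are known to bind, where a search of both strands found it.
Car12: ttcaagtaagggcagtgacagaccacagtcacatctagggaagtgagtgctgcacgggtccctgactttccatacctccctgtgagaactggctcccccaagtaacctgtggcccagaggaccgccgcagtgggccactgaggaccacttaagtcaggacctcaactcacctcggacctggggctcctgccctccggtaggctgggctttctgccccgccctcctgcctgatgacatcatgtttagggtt
Car14: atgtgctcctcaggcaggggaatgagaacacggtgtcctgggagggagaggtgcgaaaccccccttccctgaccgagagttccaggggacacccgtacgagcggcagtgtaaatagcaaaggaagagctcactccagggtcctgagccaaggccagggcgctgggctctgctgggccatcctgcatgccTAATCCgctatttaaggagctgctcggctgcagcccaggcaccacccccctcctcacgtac
Slc4a5: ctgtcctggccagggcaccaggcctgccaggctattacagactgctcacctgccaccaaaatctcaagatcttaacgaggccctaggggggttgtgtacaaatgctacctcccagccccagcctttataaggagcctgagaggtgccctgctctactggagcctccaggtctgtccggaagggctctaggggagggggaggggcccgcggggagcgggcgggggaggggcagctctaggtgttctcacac
RefSeq promoters were at hand for 7 of the 10 members. TAATCC or its reverse complement GGATTA lay in the promoters of Car14 and Car5b, starting 61 and 108 bases before the start, and in 6.25% of all 32851 mouse promoters over the same length. The E-box CACGTG, held by 6.02% of all promoters, and CACATG with its reverse CATGTG, held by 12.3%, were in none of the members' promoters. A match describes the letters only.

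The probes behind the values are 60 bases long, and the first 30 bases of those that carry the main results are given with their positions on mm9, the build of the scanner files. The Car12 probe starts at chr9:66614542-66614571 and the Car2 probe at chr3:14900206-14900235, both on the plus strand. The Car14 probe starts at chr3:95701889-95701918 on the minus strand. The pair of Car4 probes, which did not give the same picture, starts at chr11:84779487-84779516 (the brighter) and chr11:84777667-84777696 (the dimmer) on the plus strand. For Slc4a4 the first 2 probes overlap by 48 bases, so that they are nearly 1 measurement, and capitals mark the part they share within the stretch shown.
Car12: gccactgtgataattgtctgctcagcattt
Car14: ggctgagcctttggccttcaaagctgtgga
Car2: cctctcatccgttgtgcttactaacaaaat
Car4, brighter: tgacctcctccccagccccccaattaaatg
Car4, dimmer: tgcacctgcactggtcaaatgggaatgaca
Slc4a4, first: aagatcctcaacATTCCTCGAACGCCACAC
Slc4a4, second: ATTCCTCGAACGCCACACatcatgctgata
Slc4a4, the third: aagaagatgagatattttagcatttatatt
The Slc4a4 stretches start at positions 89663826, 89663838 and 89668602 of chromosome 5, and the third probe lies 4704 bases beyond the second. The Slc4a5 probes lie on chromosome 6 at 83253664 to 83253723 (the brighter) and 83249444 to 83249503. Which exon or untranslated part a probe matches was not looked up, since no annotation of that build was used here.

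On 8 of the 9 arrays, 62.1% to 71.3% of probes gave a Cy5 signal well above background, and RPE replicate 2 stood apart with 91.7%. Without it no member was called between RPE and CH, and the calls against the PR given below all stayed. All 9 rod and all 7 cone markers were higher in PR than in RPE and the CH, yet all of them were also well above background on every CH and RPE array. Of 10 RPE markers, 6 were higher in RPE than in CH, 1 was higher in the CH, and 9 were higher in RPE than in PR. The summed Cy5 signal of the RPE markers ran from 2505350 to 2773400 on the RPE arrays, from 2024870 to 2391870 on the CH arrays and from 377781 to 491355 on the PR arrays. Such a sum mostly follows the brightest markers. The mean log2(Cy5/Cy3) of the same list ran from 1.55 to 2.01 in the RPE, 0.45 to 1.14 in the CH and -2.93 to -2.71 in the PR.

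Values below are log2(Cy5/Cy3), the tissue over the common reference, after background correction and loess normalization, so 0 means as much signal as in the reference, and levels are compared between tissues for 1 probe only. A probe was called when limma's moderated test gave a fold change (FC) above 2.5 and a Benjamini-Hochberg adjusted p-value below 0.01 over all probes. All 14 member probes were measured on all 9 arrays, with 1 spot each and none saturated. With 3 arrays a tissue, precision is limited. In such bulk samples fewer cells of a type and less RNA per cell cannot be told apart.

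**Figure D1:**
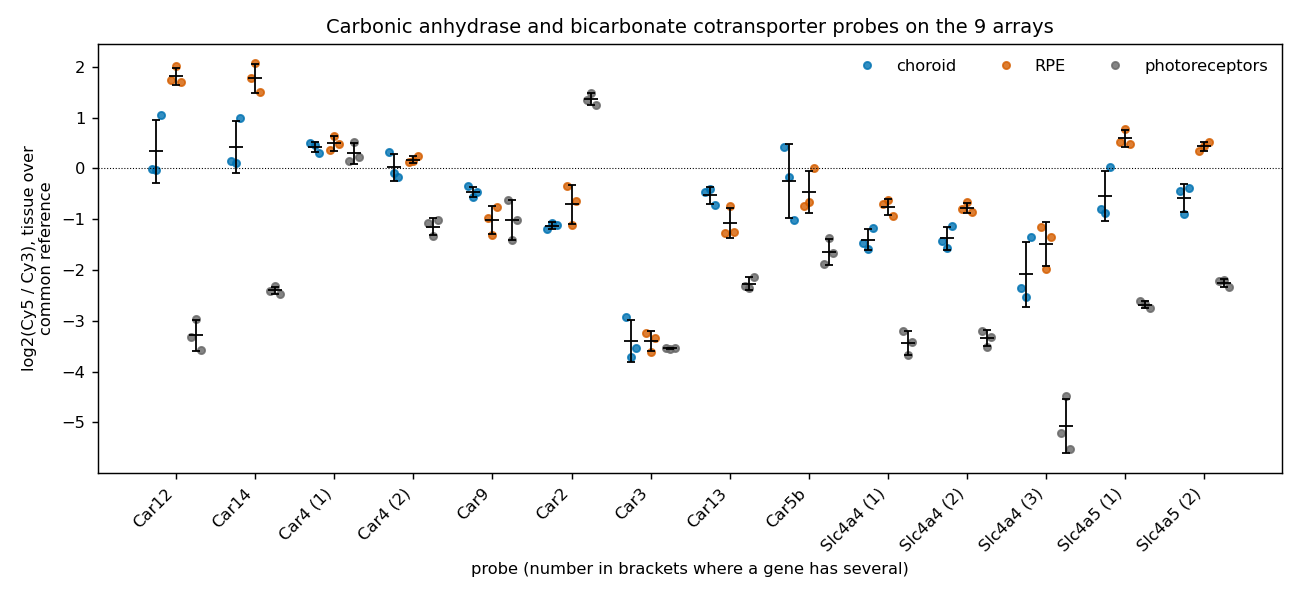
The log2(Cy5/Cy3) of each member probe (vertical axis) on the 3 CH, 3 RPE and 3 PR arrays, 1 point per array, with the mean and SD of each tissue as a bar and whiskers; numbers in brackets count the probes of a gene by brightness. Car12, Car14, Slc4a4 and Slc4a5 are lowest in the PR, Car2 is highest there, and Car3 lies near -3.4 in all tissues.

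The first question was whether any of these genes is higher in the RPE than in the choroid beside it. Between the RPE and the CH, 2 of the 14 probes were called higher in the RPE, those of Car12 and Car14, against 0.185% of all probes on the array called higher in the RPE and 1.74% called either way. No member was called higher in the CH, where the background was 1.55%. The members were chosen with earlier results of these data known. Car12 and Car14 were already on the authors' list of mouse RPE signature genes from these arrays. The shares given here and in the later comparisons are therefore descriptions and not tests. At an unadjusted p below 0.05, limma placed 7 member probes higher in the RPE and 2 higher in the CH, where 17.9% and 15.7% of all probes lay. The RPE and CH arrays did not overlap for 8 probes, 6 higher in the RPE and 2 higher in the CH, and 38.6% of all probes showed no overlap in either direction. The median difference over the members' reported probes was 0.25 on the log2 scale, and 0.04 over all probes.

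Car12, a membrane enzyme whose active site faces outward, gave log2 ratios of 1.74, 2.01 and 1.70 on the RPE arrays. On the CH arrays it gave -0.0021, -0.03 and 1.06, and on the PR arrays -3.32, -2.96 and -3.56. No array of one tissue overlapped with those of another, but CH replicate 3 stood between the other CH arrays and the RPE. The means were 1.82 ± 0.17 in the RPE, 0.34 ± 0.62 in the CH and -3.28 ± 0.31 in the PR (SD, n = 3). The RPE exceeded the CH by 1.47 (SE 0.28), an FC of 2.78, with an adjusted p-value of 0.00478 by limma.

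Car14, a second membrane enzyme with an outward active site, is known from the RPE and from retinal glia. It followed the same order, with 1.77, 2.07 and 1.5 in the RPE, 0.15, 0.10 and 1.00 in the CH and -2.42, -2.32 and -2.46 in the PR. Here too CH replicate 3 was the highest of its tissue, and the groups did not overlap. The RPE exceeded the CH by 1.36 (SE 0.23), an FC of 2.56, with an adjusted p-value of 0.0029 by limma.

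Slc4a5, an electrogenic sodium bicarbonate cotransporter best known from the choroid plexus, stayed under the FC limit with both probes. Its brighter probe gave 0.52, 0.78 and 0.48 in the RPE, -0.79, -0.87 and 0.03 in the CH and -2.61, -2.67 and -2.76 in the PR. The difference between RPE and CH was 1.14 (SE 0.21), an FC of 2.20, with an adjusted p-value of 0.00455. The other probe of Slc4a5 gave a difference of 1.01 (SE 0.14), an FC of 2.01, with an adjusted p-value of 0.000986. Both probes separated the 3 RPE arrays from the 3 CH arrays, and over the 9 arrays they ran together (Pearson r = 0.99, across 3 tissues, as a description).

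Slc4a4, the electrogenic cotransporter of the apical RPE membrane, gave -0.70, -0.63 and -0.95 in the RPE with its brightest probe, -1.46, -1.58 and -1.18 in the CH and -3.20, -3.67 and -3.42 in the PR. The RPE lay above the CH without overlap, by 0.65 (SE 0.15), but the adjusted p-value of 0.0136 and the FC of 1.57 did not pass. The second probe differed by 0.60 (adjusted p = 0.0103) and the third by 0.59 (adjusted p = 0.298), the latter with overlapping arrays.

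The choroid arrays were not alike in these genes. The mean log2 ratio of the 10 RPE markers was 1.14 on CH replicate 3, against 0.60 and 0.45 on CH replicates 1 and 2, and between 1.55 and 2.01 on the RPE arrays. Car12, Car14 and the brighter Slc4a5 probe were also highest on CH replicate 3 among the CH arrays. Without CH replicate 3 the differences grew to 1.83 for Car12, 1.65 for Car14 and 1.42 for this Slc4a5 probe, and 3 member probes were called. The part of the RPE markers in these differences was not tested.

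The calls of Car12 and Car14 over the CH rested on single arrays. Leaving out CH replicate 1, CH replicate 2, RPE replicate 1 or RPE replicate 2 left 0 probes called, with differences between 1.20 and 1.36 for Car14. Leaving out RPE replicate 3 left 1 probe, that of Car14, and over the 5 fits without its call the difference of Car12 lay between 1.29 and 1.53. Both tissues were present on 2 of the slides. On the slide with CH and RPE replicates 1 and 3 the differences were 1.19 for Car12 and 1.06 for Car14, and on the slide with replicate 2 of each tissue they were 2.04 and 1.96. Neither was called with the Feature Extraction log ratio, median centring, the Cy5 signal alone, the authors' series table or a fit of these tissues only, and both differences stayed above 0 under every alternative tried.

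**Figure D2:**
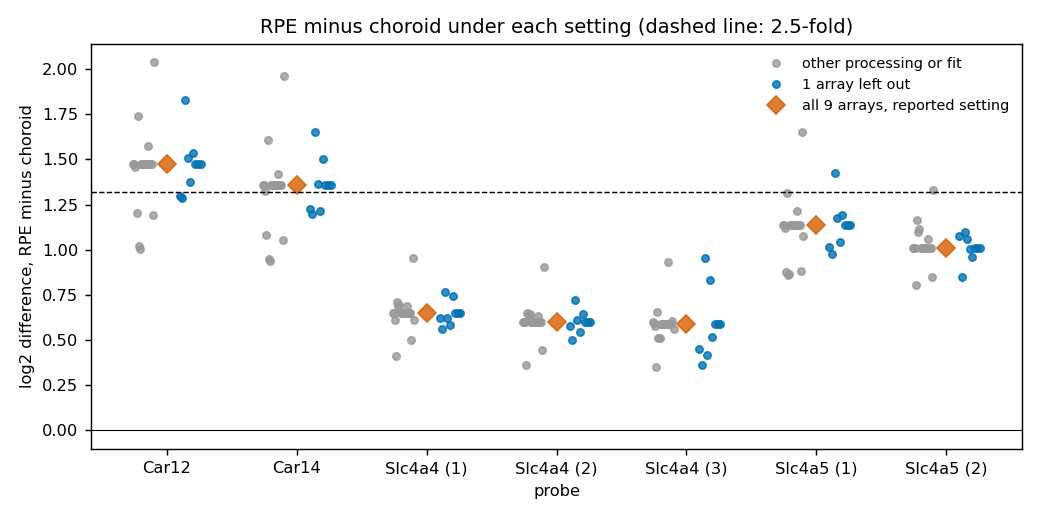
The log2 difference RPE minus CH (vertical axis) of the Car12, Car14, Slc4a4 and Slc4a5 probes with all arrays (diamonds), with 1 array left out (blue points) and under the other processing and fits (grey points); the dashed line marks an FC of 2.5. All points lie above 0, and those of Car12 and Car14 fall on both sides of the line.

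The other carbonic anhydrases differed little between the RPE and the CH. Car13, a cytosolic enzyme, was lower in the RPE by 0.55 on the log2 scale without overlap (-1.26, -0.73 and -1.24 against -0.47, -0.40 and -0.72), with an adjusted p-value of 0.0303. Car9, a membrane enzyme induced by low oxygen, was lower in the RPE by 0.56 without overlap, with an adjusted p-value of 0.0734. The differences of Car2 (0.43, adjusted p = 0.107), Car5b (-0.21, adjusted p = 0.718), Car3 (-0.00073, adjusted p = 0.999) and both Car4 probes (0.07, adjusted p = 0.742, and 0.15, adjusted p = 0.517) came with overlapping arrays. A missed threshold does not show equal levels.

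The next question was how the RPE differs from the photoreceptors on its other side. Between these tissues 7 of the 14 probes, of 4 genes, were called higher in the RPE, and 1 was called higher in the PR. On the whole array 15.5% of probes were called, 10.3% higher in the RPE and 5.17% higher in the PR. The arrays did not overlap for 10 probes higher in the RPE and 1 higher in the PR, while 58.6% of all probes showed no overlap. The median difference of the reported probes was 1.18, and -0.01 over all probes.

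The largest differences were those of Car12 and Car14. Car12 was 34.2-fold higher in RPE than in PR (log2 difference 5.10, SE 0.28, adjusted p = 2.64e-07). Car14 was 18.1-fold higher (4.18, SE 0.23, adjusted p = 2.96e-07). On the 1 slide that carried all tissues, with replicate 2 of each, the differences were 4.97 and 4.39. The other PR arrays shared no slide with the RPE or the CH.

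Both cotransporters were higher in RPE than in PR with every probe. Slc4a5 differed by 3.28 (FC 9.68, adjusted p = 8.45e-07) and 2.68 (FC 6.41, adjusted p = 1.74e-07). The 3 Slc4a4 probes differed by 2.67 (FC 6.38), 2.56 (FC 5.89) and 3.58 (FC 12), with adjusted p-values of 3.57e-07, 1.98e-07 and 1.88e-05. The third Slc4a4 probe gave -1.15, -1.98 and -1.35 in the RPE, -2.35, -2.54 and -1.35 in the CH and -5.21, -4.48 and -5.53 in the PR, a wider spread than the others. Its calls against the PR were lost with the Cy5 signal alone (differences of 3.06 for the RPE and 2.55 for the CH).

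Car2, the highly active cytosolic enzyme found in red blood cells and Müller glia among many cells, ran the other way. It gave 1.36, 1.48 and 1.25 in the PR, -0.35, -1.11 and -0.64 in the RPE and -1.19, -1.07 and -1.12 in the CH. All PR arrays lay far above the others. The PR exceeded the RPE 4.18-fold (log2 difference RPE minus PR -2.06, SE 0.17, adjusted p = 4.37e-06) and the CH 5.62-fold (CH minus PR -2.49, SE 0.17, adjusted p = 9.29e-07). On the slide with all tissues the differences were -2.59 and -2.55. It was called in both comparisons in each of the 9 fits that left out 1 array.

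The values of marker lists of several cell types were set beside those of Car2. The mean log2 ratio of the 9 Müller glia markers was -2.13 to -1.37 in PR, -0.44 to -0.03 in RPE and -0.35 to -0.11 in CH samples, and 5 of the 9 were called lower in PR than in RPE. These 5 were Glul, Rlbp1, Vim, Apoe and Dkk3, and Rlbp1 is also on the RPE list. Slc1a3 (RPE minus PR -0.69), Aqp4 (-0.42), Kcnj10 (-0.41) and Abca8a (-0.06) leaned towards the PR and were not called. The 7 red blood cell markers had means from -0.87 to -0.80 in the PR and from -0.83 to -0.21 in the other tissues. The rod markers had means between 3.64 and 3.83 in the PR and between -1.13 and 0.43 elsewhere. Those of the cone markers lay between 2.63 and 2.78 in the PR and between -1.33 and -0.50 elsewhere. The 8 inner retina markers had means from -2.40 to -1.64 in the PR and from -2.36 to -1.71 elsewhere, with Grm6 and Pcp2, genes of bipolar cells, called higher in the PR (RPE minus PR -1.69 and -1.45) and Trpm1 called lower there (3.14). The part of these cells in the value of Car2 was not tested.

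Car13 and Car5b, the mitochondrial form, lay between the groups of results. Car13 was 2.27-fold higher in RPE than in PR, where it gave -2.31, -2.35 and -2.13 (adjusted p = 0.000121), and so fell short of the FC limit. With the slide as a random block the difference was 1.22 and did not pass. With the slide as a fixed block it was 1.51, but that fit takes the PR level from PR replicate 2 alone. The other PR arrays share no slide with another tissue. Car5b gave -0.74, -0.65 and 0.004 in the RPE, 0.42, -0.16 and -1.02 in the CH and -1.89, -1.37 and -1.67 in the PR. Its RPE and PR arrays did not overlap, by 1.18 on the log2 scale (adjusted p = 0.0142). The Car5b probe was dim, well above background on 2 of 3 CH and 2 of 3 PR arrays.

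Car4, an enzyme anchored outside the cell and known from the endothelium of the choriocapillaris, depended on the probe. The brighter probe gave 0.36, 0.64 and 0.49 in the RPE, 0.50, 0.46 and 0.31 in the CH and 0.15, 0.53 and 0.22 in the PR, and all tissues overlapped. The dimmer probe gave 0.13, 0.15 and 0.25 in the RPE, 0.33, -0.08 and -0.17 in the CH and -1.08, -1.33 and -1.02 in the PR, where it was not well above background on any array. The fitted differences were 1.32 (adjusted p = 2.83e-05, with an FC just under the limit) and 1.17 (adjusted p = 5.61e-05), and neither was called. The RPE over PR difference passed without RPE replicate 1, RPE replicate 2, PR replicate 1 or PR replicate 3 (1.33 to 1.38). It also passed with the slide as a random block (1.32), median centring (1.38), the Cy5 signal alone or the authors' series table (1.62). With the slide as a fixed block, where the PR level comes from PR replicate 2 alone, it was 1.44. Both differences passed with the Feature Extraction log ratio (2.25 and 1.94) and with a normexp offset of 16 (1.56 and 1.39). With no PR array well above background for this probe, the size of its difference from the PR is not settled.

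The endothelial markers were low in the PR. Of 8 such genes 7 were called higher in the RPE and in CH than in PR, with mean log2 ratios from 0.88 to 1.60 in the CH, 1.19 to 1.31 in the RPE and -2.14 to -1.99 in the PR, and 0 differed between RPE and CH. The Pearson correlation of the Car4 probes over the 9 arrays was 0.49, against 0.95 to 1.00 among the Slc4a4 probes.

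On the slide with replicate 2 of each tissue, the brighter Car4 probe and the third Slc4a4 probe were dim in the reference as well. The log2 Cy3 signal of the reference, the same RNA on every array, was 11.5 to 11.8 there against 13.9 to 14.4 on the other slides for Car4, and 12 to 12.5 against 14.2 to 14.9 for Slc4a4. For the other 12 member probes the mean reference signal of that slide differed from the other slides by 0.03 to 0.54. The part of this in the ratios was not tested.

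Car3, a cytosolic form abundant in skeletal muscle and fat, was low against the reference everywhere. It gave -2.93, -3.71 and -3.54 in the CH, -3.24, -3.62 and -3.33 in the RPE and -3.54, -3.55 and -3.52 in the PR, and none of its comparisons was called. The mean log2 ratio of 8 skeletal muscle markers was also low on all arrays, between -3.17 and -2.15. That of 6 adipocyte markers was not, with -0.35 to 0.20 in the CH, -0.98 to -0.46 in the RPE and -0.75 to -0.37 in the PR. All 8 muscle markers were well above background on every array. Of the adipocyte markers only 3 were so on all CH arrays, 2 on all RPE arrays and 2 on all PR arrays, which limits their ratios. The differences of Car3 from the PR, 0.14 for each tissue, turned to -1.33 in the RPE and -1.21 in the CH when the arrays were scaled to a common spread. Car9 gave -0.98, -1.30 and -0.76 in the RPE, -0.35, -0.55 and -0.47 in the CH and -0.63, -1.41 and -1.01 in the PR, with no difference of RPE and PR beyond the spread (0.00071, SE 0.20).

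**Figure D3:**
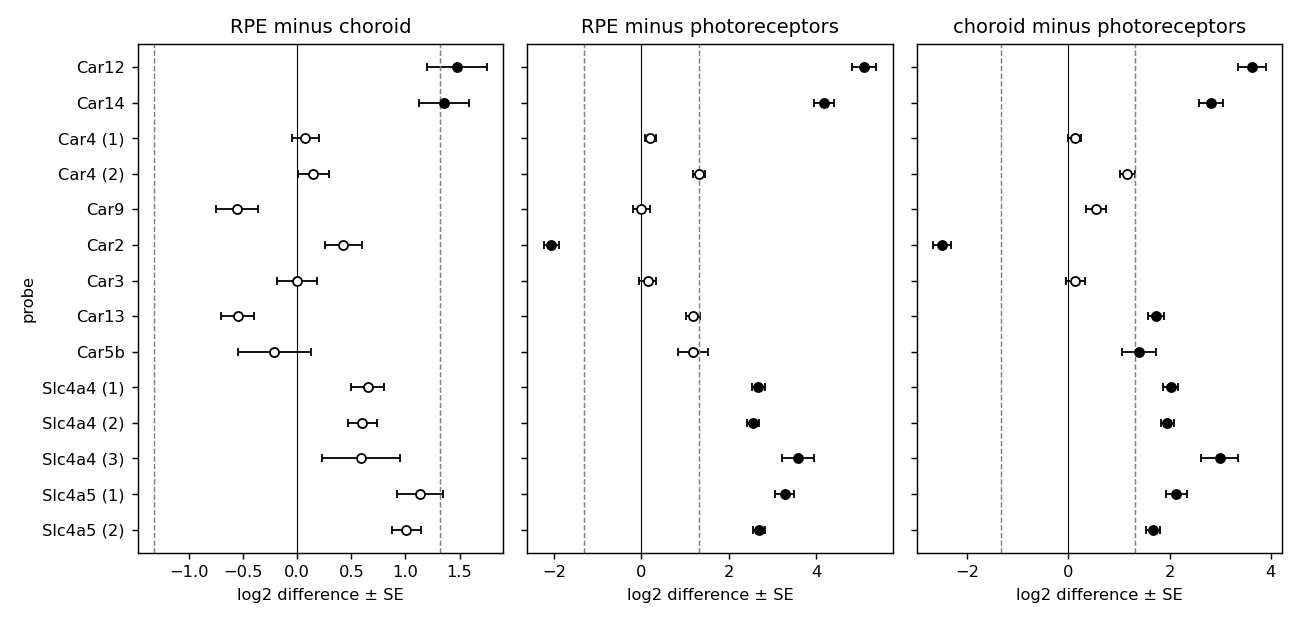
Fitted log2 differences with their SE (horizontal axes) of the 14 member probes in the 3 comparisons, filled where called; dashed lines mark an FC of 2.5 in either direction. Only Car2 lies to the left of the lines, in both comparisons with the PR.

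Between the CH and the PR, 9 of the 14 probes, of 6 genes, were called higher in the CH and 1, Car2, higher in the PR. The whole array had 18.4% of probes called, 12% higher in the CH and 6.33% higher in the PR. The arrays did not overlap for 11 probes higher in the CH and 1 higher in the PR, against 62.1% of all probes in either direction. The comparison shares its PR arrays with the one above and is given for its own values. Car12 was 12.3-fold higher in CH than in PR, Car14 7.07-fold, and Slc4a5 4.40-fold and 3.19-fold by its probes. The Slc4a4 probes gave an FC of 4.06, 3.89 and 7.95.

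Car13 and Car5b were called here and not against the RPE. Car13 was 3.33-fold higher in CH than in PR (adjusted p = 6.58e-06) and Car5b 2.63-fold (adjusted p = 0.00541). The Car5b call was lost without CH replicate 1, CH replicate 2, PR replicate 1 or PR replicate 3, with differences from 1.06 to 1.38. It was also lost in 7 other alternatives. Among them was the slide as a fixed block (1.07), which takes the PR level from PR replicate 2 alone. The probes of Car13, Car3 and Car2 lie within 237934 bases of chromosome 3 on mm9. The gap is 209389 bases between those of Car13 and Car3 and 28365 between those of Car3 and Car2. Other genes in this stretch were not looked up. The tissue orders of these genes differed as given above: Car13 lowest in the PR, Car2 highest there and Car3 flat.

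The genes most alike in pattern to the members, among 23922 candidate probes, were found by Pearson's r over the 9 arrays, which cover 3 tissues and share the reference. For Car12 they were Ntrk2, A930028N01Rik and Mfsd7c. For Car14 they were Rrh, LOC674678 and Slc4a5, and for Car2 Cabp4, Mapk8 and Pde6b, with r of at least 0.998 in all 9 cases. For the brighter Car4 probe, among 23921 candidates, they were Fam100b, Krtap4-8 and Arl6ip4, with r between 0.95 and 0.97.

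The rest of the machinery was read from 5 lists of 46 related genes (65 probes). Of these, 0 were called higher in RPE than in CH by limma, and 1, Car6, was called higher in the CH. At an unadjusted p below 0.05, 12 of the probes were higher in the RPE and 12 higher in the CH, against the 17.9% and 15.7% of all probes given above. Against the PR, 11 genes were called higher in the RPE and 4 lower, where 10.3% and 5.17% of all probes were. The CH was higher than the PR in 9 and lower in 6, against 12% and 6.33% of all probes. A gene was counted where at least 1 of its probes was called. The shares of the array are per probe, so these gene counts and shares are not like with like.

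Among the 8 other carbonic anhydrases, Car6, a secreted form known from saliva and tears, was highest in the CH. It fell by 2.44 on the log2 scale from CH to RPE (adjusted p = 5.90e-05) and was 2.94 higher in RPE than in PR and 5.38 higher in CH than in PR. Car10 and Car11, relatives that lack the enzyme's activity, were higher in RPE than in PR by 2.03 and 1.67. The other 5 were not called in any comparison.

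Among the 8 other genes of the Slc4 family, Slc4a2, a chloride and bicarbonate exchanger, was higher than in the PR by 3.73 in the RPE and 3.11 in the CH. Slc4a3, a second exchanger, was higher by 1.41 and 1.91 with its brighter probe, while the other probe gave 0.84 and 1.10 and was not called. Slc4a7, an electroneutral sodium bicarbonate cotransporter, was higher in the PR with its brighter probe, with differences of -3.26 for the RPE and -3.27 for the CH (adjusted p = 1.41e-07 and 1.00e-07). Its other probe, also well above background on all arrays, gave -1.17 and -1.38 and was not called (adjusted p = 0.174 and 0.106).

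Of the 11 Slc26 anion exchangers, Slc26a7, a chloride and bicarbonate exchanger, was the largest in the RPE over the PR, with a difference of 4.41 (adjusted p = 1.58e-08). Its difference of 1.22 over the CH had an adjusted p-value of 0.000557 but stayed under the FC limit. Slc26a2 (-2.13) and Slc26a6 (-1.51) were higher in PR than in RPE. Of 9 Slc9 sodium and hydrogen exchangers, Slc9a7 was higher in PR than in RPE (-2.84) and Slc9a9 higher in the RPE (1.33). Of 10 regulators, 4 were higher in RPE than in PR: the PDZ scaffolds Slc9a3r1 (3.79) and Slc9a3r2 (3.59), the kinase Wnk4 (2.80) and Ahcyl2 (1.67). The other probes of Slc9a3r2 (0.86) and Ahcyl2 (1.08) were not called.

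**Figure D4:**
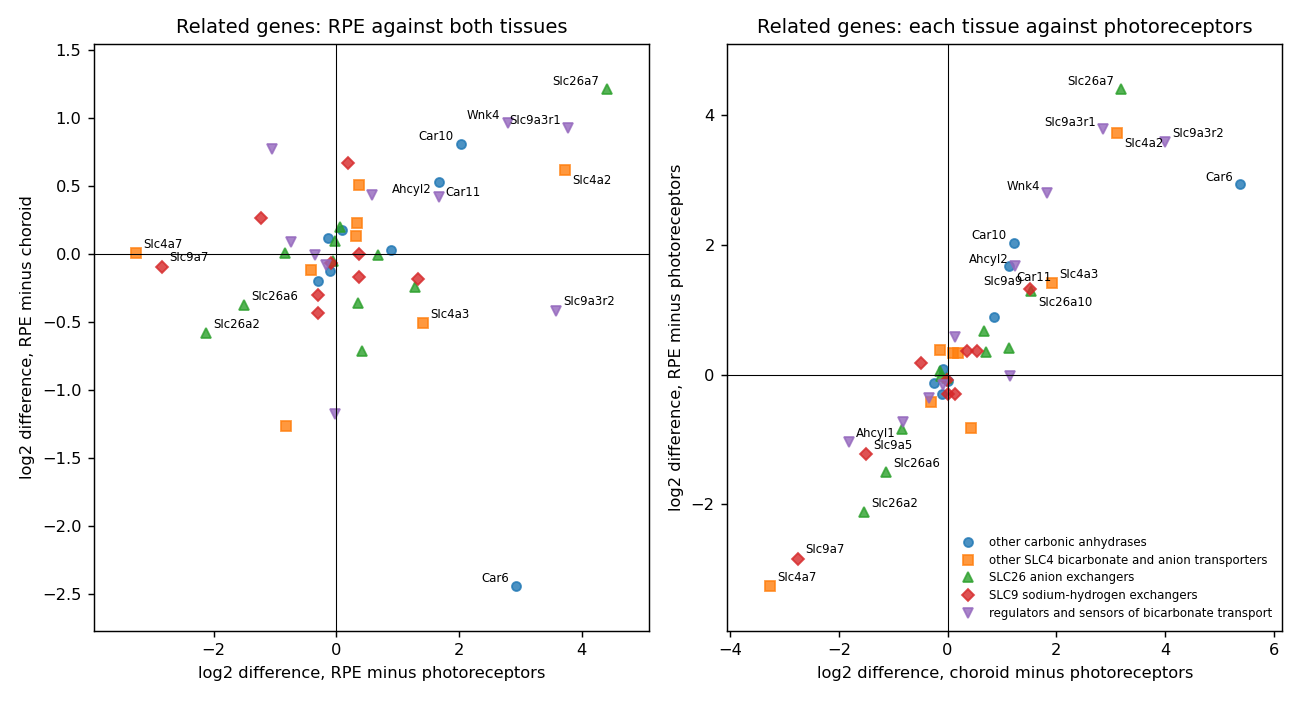
Log2 differences of 46 related genes, 1 point per gene at its reported probe and 1 symbol per list; the left panel sets RPE minus CH (vertical) against RPE minus PR, the right panel RPE minus PR (vertical) against CH minus PR. The called genes with the larger differences are named, Slc26a7 at 4.41 in the RPE over the PR and Slc4a7 at -3.26 among them, and Car6 is the lowest in RPE minus CH.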

How the data were processed

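The authors extracted 9 dual-colour arrays with Agilent Feature Extraction 9.5.3.1 and deposited its output, in which the mean signals and local backgrounds are intensity values as scanned. The deposited log ratio is a log10 value and the values in the authors' series table are log2 Cy5 signals, with column medians from 9.38 to 9.55, whose centring and normalization are not given in the sources used here. Both were used only as alternatives. Groups came from the sample labels.

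The normexp correction (offset 50) was followed by loess normalization of log2 ratios, with control spots and spots marked as outliers left out. Spots of a probe were averaged, and all 9 arrays entered a model of tissue means (limma 3.58.1, R 4.3.3), with adjustment over 39429 probes.

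All members are named. The reported probe of a gene is the brightest, a gene is called where at least 1 probe is, and up to 4 called genes of each related list and comparison may be named. Members and lists, with 13 marker lists, were chosen with earlier results of these data known. On simulated data for RPE minus CH (39429 probes) the fit called 92 of 100 changes of 2 log2 units and 98 of 100 changes of 3, with 0 false calls. The simulated noise was independent between arrays and probes, and no smaller change was simulated. The run therefore does not bear on the calls of Car12 and Car14 over the CH, whose differences were smaller. Alternatives covered background, normalization, reference, thresholds, slide, replicate number and each array left out.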

Additional observations from a re-analysis of the deposited data

How the results depend on the processing

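Of 779 values under alternatives, 691 counted as unchanged, and of 378 values with 1 array left out 352 did. Unchanged meant the same direction and the same side of the threshold. For the slide that carried all tissues, where no test was possible, it meant a shift smaller than the larger SD of the tissues compared. The 2 probes called higher in RPE than in CH became 0 with the Feature Extraction log ratio, median centring, Cy5 alone, the authors' series table, only the tissues compared or only the slide of replicates 1 and 3, and 4 at an FC of 2. With 1 array left out the count ran from 0 to 3. The 1 probe higher in PR than in RPE became 2, and the 9 probes higher in CH than in PR became 4, with scale normalization. The cause was not tested. The calls of Car12, Car14, Car2 and both cotransporters against the PR kept their direction, with losses for the third Slc4a4 probe with Cy5 alone and the authors' series table, and, in the CH against the PR, for the first and second Slc4a4 probes and the dimmer Slc4a5 probe with scale normalization.

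Whether the replicate numbers pair the samples was not settled. Deviations of same-numbered arrays correlated between -0.08 and 0.29, and those of differently numbered arrays between -0.31 and 0.25. With 3 arrays per tissue these ranges cannot decide it, and the 3 arrays with number 2 share a slide. With the replicate number as a block, 2 member probes were called higher in RPE than in CH as before. For RPE minus CH the block gave Car12 an adjusted p of 0.00879, and Car5b in CH minus PR lost its call. With the Feature Extraction log ratio, 54.3% of calls in RPE minus PR were higher in the RPE, against 66.6%, and 53.2% against 65.6% in CH minus PR.

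Some differences near 0 changed sign. The brighter Car4 probe, RPE minus CH, changed sign to -0.17 with median centring and -0.0067 with array weights. Car3, RPE minus CH, changed sign to 0.0048 with no background correction, 0.071 with Cy5 alone, 0.082 with the authors' series table and 0.094 with array weights. The brighter Car4 probe, RPE minus PR, changed sign to -0.028 with the Feature Extraction log ratio and -0.043 with median centring. Car9, RPE minus PR, changed sign to -0.00096 with normexp with offset 16, -0.15 with the Feature Extraction log ratio, -0.41 with scale normalization, -0.088 with Cy5 alone, -0.084 with the authors' series table and -0.0067 with marked spots kept. Car3, RPE minus PR, changed sign to -0.11 with the Feature Extraction log ratio, -0.20 with median centring, -1.33 with scale normalization, -0.16 with Cy5 alone, -0.16 with the authors' series table and -0.12 with slide as a fixed block. The brighter Car4 probe, CH minus PR, changed sign to -0.12 with the Feature Extraction log ratio and -0.012 with slide as a fixed block. Car3, CH minus PR, changed sign to -0.10 with the Feature Extraction log ratio, -1.21 with scale normalization, -0.23 with Cy5 alone, -0.25 with the authors' series table and -0.12 with slide as a fixed block. With 1 array left out, the brighter Car4 probe in RPE minus CH ran from -0.00014 to 0.14, Car3 in RPE minus CH ran from -0.16 to 0.23, Car5b in RPE minus CH ran from -0.60 to 0.13, Car9 in RPE minus PR ran from -0.20 to 0.20 and Car3 in CH minus PR ran from -0.089 to 0.30. Of the values with a changed sign, that of Car3 in RPE minus PR with scale normalization was called higher in the PR (adjusted p = 0.000358). With 1 spot per probe and 3 arrays per tissue, differences near 0 were not resolved. Car5b in CH minus PR was also lost in 7 alternatives, and Car13 there with scale normalization. The Car5b probe and the dimmer Car4 probe were close to background, which limits their values.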
